A study of Mus musculus with 4 samples.

Results

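The genes described here encode GM-CSF (Csf2), M-CSF (Csf1), the IL-6 family cytokines leukemia inhibitory factor (Lif) and oncostatin M (Osm), amphiregulin (Areg), osteopontin (Spp1), both chains of the IL-6 receptor (Il6ra and Il6st) and the transcription factor Bhlhe40. They are 9 of the 23990 gene symbols measured, taken from the tables by symbol with no threshold on their values. CD44+ CD4 cells were sorted out of spinal cords (CNS) and out of draining lymph nodes (dLN), the latter pooled, of wild type C57BL/6 mice (C57BL/6J in the study's methods) at the onset of experimental autoimmune encephalomyelitis (EAE), a model of multiple sclerosis. All mice had been immunized with a MOG peptide in complete Freund's adjuvant and given pertussis toxin, so no unimmunized group was compared. Per the study's methods the sorted cells of both tissues were then stimulated with PMA and ionomycin, whereas the sample labels speak of freshly sorted cells and name no stimulation. The ages of the mice and the number pooled per library are not given in the sources used here. There were 2 libraries per tissue, and nothing states that they came from separate mice, so p-values measure the spread between these libraries only.

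GM-CSF is made by activated T cells, acts on monocytes, macrophages and neutrophils, and is known as a cytokine that encephalitogenic CD4 cells need to bring on EAE. Bhlhe40 is a basic helix-loop-helix repressor that binds E-boxes, and T cells that lack it make little GM-CSF and more IL-10. Cytokines of the IL-6 family signal through gp130, the product of Il6st, and through the kinases Jak1, Jak2 and Tyk2 to Stat3. IL-6 joins gp130 through the receptor chain encoded by Il6ra, and T cells exposed to IL-6 and TGF-beta become Th17 cells.

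The libraries held an estimated 17.9 M to 21.3 M fragments. Cd3d, Cd3e, Cd3g and Cd4, which define CD4 T cells, were between 328 and 761 FPKM in CNS and between 66.7 and 112 FPKM in dLN. All 12 T-cell markers were read in every library, with 6 called higher in CNS (these 4, Cd28 and Lck), 4 lower (Cd247, Cd5, Cd44 and Zap70) and 2 not called. Markers of other cells were not the same in both CNS libraries. The summed FPKM of 15 microglia and macrophage markers was 51.9 in CNS replicate 1 and 535 in CNS replicate 2, against 63.0 and 58.3 in dLN. Cd74 was the largest part in dLN (58.39 and 54.08 FPKM, against 22.4 FPKM in CNS replicate 1). Apart from Cd74 and Cd68, each of the 15 markers was higher in CNS replicate 1 than in either dLN library. Of the 13 tested, 8 were called higher in CNS, 0 lower and 5 were not called. Of these 15, 8 (Csf1r, Aif1, C1qa, C1qb, C1qc, Tyrobp, Trem2 and the gene listed under its older name Emr1) were listed at 0 in both dLN libraries and none in both CNS libraries. The summed FPKM of 9 neutrophil markers was 1.04 in CNS replicate 1, 219 in CNS replicate 2, and 0.0606 and 0.0686 in dLN. Genes that PMA and ionomycin induce summed to 3622 and 5263 FPKM in CNS and to 13640 and 15470 FPKM in dLN, with 18 of 28 lower and 6 higher in CNS. Il2 was the largest part in dLN (5363 and 6176 FPKM, against 18.2 and 38.82 FPKM in CNS). Fos (log2 ratio 3.29) and Junb (2.38) were among the 6 higher, so the list moved in both directions. Of 12 genes of resting T cells, 10 were higher and 1 lower in CNS. These counts stand beside 37.8% of all genes tested called higher and 37.2% called lower. B cell markers summed to at most 1.82 FPKM and CD8 T cell and NK cell markers to at most 9.94 FPKM in any library, with Pax5 listed at 0 in every library. Markers of fibroblasts and endothelium summed to 23.3 and 29.9 FPKM in CNS and to 12.2 and 9.87 FPKM in dLN. Those of oligodendrocytes, astrocytes and neurons summed to 135 and 132 FPKM in CNS and to 64.8 and 63.4 FPKM in dLN. Most of this came from Mbp, lower in CNS (48.58 and 44.52 against 55.55 and 57.66 FPKM), and Cnp, higher in CNS (82.81 and 77.55 against 8.796 and 5.121 FPKM). Mobp, Mog, Mag, Gfap, Aqp4 and Syt1 were listed at 0 in dLN. In CNS they were at most 0.172 FPKM, apart from Gfap (0.6551 and 2.511 FPKM). The neuronal Tubb3 was at 2.098 and 4.401 FPKM in CNS and at 0.1054 and 0.02943 FPKM in dLN. Snap25 was at 0.3158 and 1.795 FPKM in CNS and at most 0.02457 FPKM in dLN. Of the 5 tested in this list, 3 were called higher in CNS (Cnp, Gfap and Tubb3), 1 lower (Mbp) and 1 was not called (Snap25), beside the shares of all genes given above. Ddx3y, a Y-linked gene, was at 12.7 and 11.2 FPKM in CNS and listed at 0 in dLN. Xist, an RNA of female cells, was at 0 and 0.0026 FPKM in CNS and at 26.6 and 22.3 FPKM in dLN. The CNS cells were thus from male and the dLN cells from female mice. What these differences contribute to the results below was not tested, and tissue and sex cannot be told apart.

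**Figure D1:**
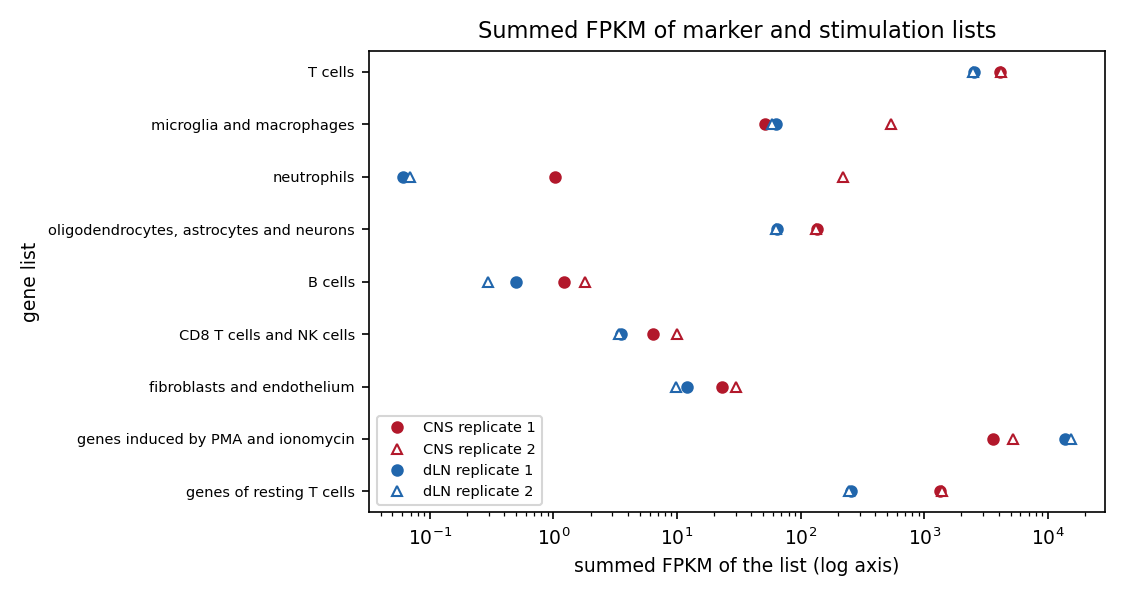
Summed FPKM (log axis) of each marker and stimulation list in the CNS libraries (red) and the dLN libraries (blue), with replicate 1 as filled circles and replicate 2 as open triangles. Microglia and macrophage markers reach 535 FPKM in CNS replicate 2 against 51.9 to 63.0 in the other libraries, and neutrophil markers reach 219 FPKM in CNS replicate 2 against 1.04 or less. The former sum includes Cd74, at 22.4 FPKM in CNS replicate 1 and at 58.39 and 54.08 FPKM in dLN. Each other marker of that sum except Cd68 was higher in CNS replicate 1 than in either dLN library.

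Of the 9 genes, Bhlhe40 and Spp1 were higher and Lif, Areg, Il6ra and Il6st were lower in CNS than in dLN, each past the test and changed by at least 1 on the log2 scale (as were 39.2% of all genes tested), while Csf2, Csf1 and Osm did not pass the test. FPKM, the fragments of a transcript scaled by its length and by the mapped fragments of the library, was added up over all transcripts with the same gene symbol, and log2(FPKM + 1) was tested with limma over the 10634 genes whose mean reached 1 FPKM in CNS or dLN. All 9 genes were among these. Each log2 ratio below sets CNS over dLN on the scale of log2(FPKM + 1), where changes of low genes appear smaller than they are. At a Benjamini-Hochberg adjusted p under 0.05, 6 of the 9 genes (66.7%) were called against 74.9% of all genes tested, so the share called does not set these genes apart. Higher calls made up 37.8% and lower calls 37.2% of all genes tested. The tissues did not overlap in 7 of the 9 genes, as against 89.4% of all genes tested. The median log2 ratio was 0.03 over the 9 genes and 0.05 over all genes tested. With 2 libraries a side, the smallest p of a two-sided exact permutation test is 0.333, so the calls rest on the spread that limma shares across genes.

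**Figure D2:**
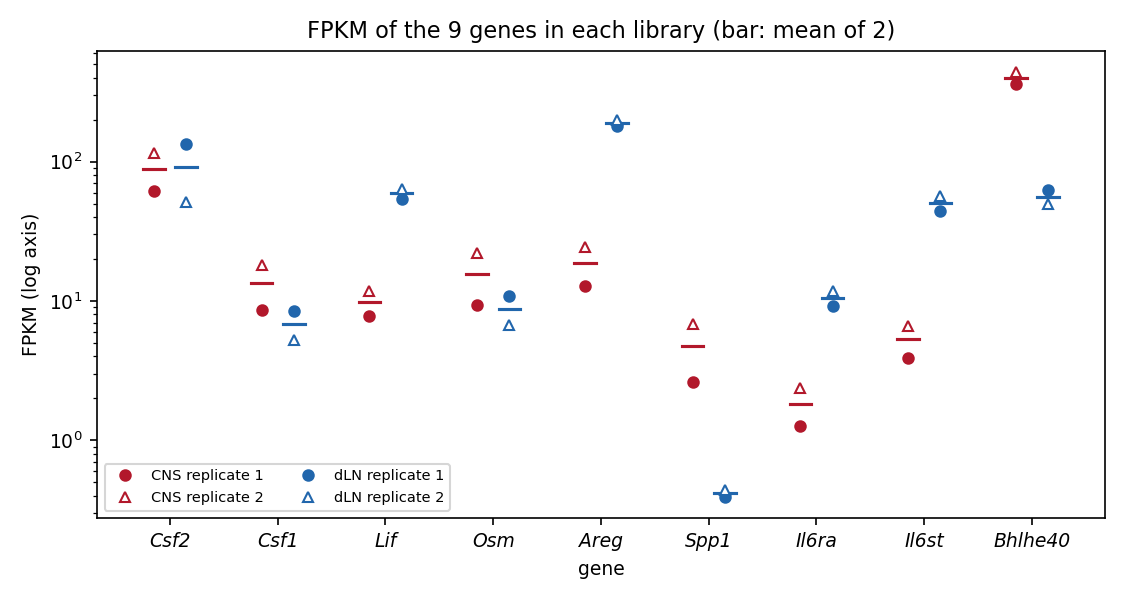
FPKM (log axis) of the 9 genes in the CNS libraries (red) and the dLN libraries (blue), with replicate 1 as filled circles, replicate 2 as open triangles and the mean of both as a bar. Bhlhe40 is highest in CNS and Areg highest in dLN, and the tissues overlap for Csf2 and Osm.

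Bhlhe40 (Entrez gene 20893) lies on the plus strand of chromosome 6 from 108660629 to 108666925 (mm10). It was read at 361 and 440 FPKM in CNS, and at 62.2 and 49.5 FPKM in dLN. Both CNS libraries lay far above both dLN libraries, and the libraries of a tissue were within 1.26-fold of each other. Its mean of 401 ± 56.1 FPKM (SD, n = 2) in CNS was 7.18 times that in dLN, 55.8 ± 8.98 FPKM (SD, n = 2). The log2 ratio, 2.82 with a standard error of 0.16, passed (limma adjusted p = 0.000153) and had the smallest standard error among the 9 genes. In CNS, 97.9% and 98.3% of the genes tested lay below Bhlhe40, and in dLN 88.0% and 84.9% did. With each library left out in turn its log2 ratio stayed between 2.66 and 2.99. Bhlhe41, its close relative, was at or below 0.125 FPKM in every library and was not tested.

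Of the other T-cell genes tied to Bhlhe40, Il10, which encodes the anti-inflammatory cytokine that Bhlhe40 represses, was at 3.93 and 4.35 FPKM in CNS and at 26.5 and 28.0 FPKM in dLN. Its log2 ratio was -2.46 (limma adjusted p = 9.00e-05), lower in CNS as were 37.2% of all genes tested. A link of Il10 to Bhlhe40 in these cells was not tested. Il1r1, the receptor for IL-1, a cytokine that raises Bhlhe40 and GM-CSF in T cells, was lower in CNS as well (log2 ratio -1.84, 7.43 and 10.5 FPKM against 35.4 and 33.3 FPKM). Maf, a transcription factor that drives Il10, was higher (log2 ratio 1.33). Hif1a, the oxygen-sensing factor, was at 185 and 185 FPKM in CNS and at 201 and 199 FPKM in dLN, and did not pass the test (log2 ratio -0.11, limma adjusted p = 0.215), although it did with the same sum per library (limma adjusted p = 0.0148).

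Csf2 (Entrez gene 12981, minus strand of chromosome 11, 54247270 to 54249899) was among the more abundant transcripts of both tissues. It was read at 61.7 and 115 FPKM in CNS and at 133 and 51.3 FPKM in dLN. The highest and the lowest value both came from dLN, so the tissues overlapped, and its dLN libraries differed 2.59-fold, the largest gap within dLN among the 9 genes. The log2 ratio was 0.03 with an interval of -1.35 to 1.40 at 95% confidence (limma adjusted p = 0.967), so a difference of 2-fold in either direction would fit within it. Between 85.4% and 94.7% of the genes tested lay below Csf2 in each library. Il3, which encodes the related cytokine IL-3, lies 15.2 kb from Csf2 and shares its T-cell enhancers. Il3 was at 5.47 and 7.46 FPKM in CNS and at 344 and 309 FPKM in dLN. Csf2 was therefore at 11.3 and 15.3 times Il3 in the CNS libraries and at 0.387 and 0.166 times Il3 in the dLN libraries.

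Csf1 (Entrez gene 12977, minus strand of chromosome 3, 107741048 to 107760469) encodes the growth factor of macrophages and microglia. It was at 8.66 and 18.1 FPKM in CNS and at 8.46 and 5.27 FPKM in dLN. The tissues did not overlap, but CNS replicate 1 and dLN replicate 1 were nearly equal. The log2 ratio of 0.82 did not pass (95% interval -0.17 to 1.81, limma adjusted p = 0.107), and it was 0.33 without CNS replicate 2 and 1.31 without CNS replicate 1. The table splits Csf1 into 3 transcripts. The longest, of 4176 bases, held 81.6% and 90.3% of its FPKM in CNS and 94.7% and 86.7% in dLN. A shorter one of 2324 bases, whose lower end lies at 107745595 in place of 107741048, held 18.4% and 5.01% in CNS and 5.25% and 10.5% in dLN, so its share overlapped between the tissues.

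Apart from Csf2ra, the receptors of both growth factors were read mostly in CNS replicate 2. Csf2ra, the GM-CSF binding chain, was at 0.338 and 3.65 FPKM in CNS and at 2.01 and 2.72 FPKM in dLN. Csf2rb, the signalling chain, was at 0.342 and 6.03 FPKM in CNS and listed at 0 in both dLN libraries. Csf1r, the receptor of M-CSF, was at 0.668 and 5.26 FPKM in CNS and listed at 0 in dLN. Of the 5 receptor genes tested (Csf2ra, Csf2rb, Csf2rb2, Csf1r and Csf3r) none was called in limma. Csf2rb2 and Csf3r are related genes, not receptors of GM-CSF or M-CSF. Each of the 5 was higher in CNS replicate 2, the library with the high myeloid and neutrophil markers, than in CNS replicate 1. At an unadjusted p under 0.05, 1 of them passed (Csf1r). Csf1r was called higher in 6 of 13 alternative fits. With both CNS libraries kept, these were the pseudocounts of 0.1 and 0.5, the same median ratio per library and the replicate block. Csf2rb and Csf2rb2 were called with the pseudocount of 0.1 as well. The remaining fits that called Csf1r were those without CNS replicate 1 or without CNS replicate 2. These set 1 CNS library against dLN libraries at 0, which show no spread of their own, so no calls are read from them. In CNS replicate 1, Csf2rb, Csf2rb2, Csf1r and Csf3r were at 0.342, 0.315, 0.668 and 0.0389 FPKM, under the minimum of 1 FPKM. The log2 ratio of Csf2ra was -1.32 without CNS replicate 2. Csf2rb and Csf2rb2 are near-identical paralogs, so the division of reads between them is uncertain. In bulk RNA, fewer cells that express a gene and less RNA per cell cannot be told apart.

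Lif (Entrez gene 16878, plus strand of chromosome 11, 4257568 to 4272514) encodes a cytokine that binds gp130 with the LIF receptor and is known to counter Th17 differentiation. It was at 7.78 and 11.8 FPKM in CNS and at 54.3 and 63.9 FPKM in dLN. Both CNS libraries lay far below both dLN libraries, with a mean 6.03 times higher in dLN. On the log2 scale Lif was lower by a ratio of -2.50 with a standard error of 0.21 (limma adjusted p = 0.00042). The table holds 2 Lif transcripts. The one that begins at 4257568 held between 78.8% and 87.0% of the FPKM in each library, and the one that begins downstream at 4266796 held the rest, so both were lower in CNS.

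Osm (Entrez gene 18413, plus strand of chromosome 11, 4236785 to 4241026) encodes a cytokine of T cells and myeloid cells and lies 16.5 kb from Lif. It was at 9.42 and 22.1 FPKM in CNS and at 10.9 and 6.75 FPKM in dLN. The tissues overlapped, and CNS replicate 2 stood above the other libraries. The log2 ratio was 0.69 (95% interval -0.42 to 1.81, limma adjusted p = 0.197). It was 0.12 without CNS replicate 2 and 1.27 without CNS replicate 1 (limma adjusted p = 0.0583). Lif was at 0.826 and 0.535 times Osm in CNS and at 5.0 and 9.46 times Osm in dLN, so the order of these neighbours was reversed between the tissues.

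Areg (Entrez gene 11839, plus strand of chromosome 5, 91139615 to 91148432) encodes amphiregulin, an EGF receptor ligand that T cells release in tissue repair. It was at 12.9 and 24.4 FPKM in CNS and at 181 and 200 FPKM in dLN. The tissues were far apart, and Areg was the highest of the 9 genes in dLN. In dLN the mean was 191 ± 13.4 FPKM (SD, n = 2), 10.2 times the CNS mean of 18.6 ± 8.10 FPKM (SD, n = 2). Its log2 ratio, -3.35 with a standard error of 0.29 (limma adjusted p = 0.000492), was the largest in size among the 9 genes. Of 10 other EGF family genes, only 2 reached a mean of 1 FPKM in either tissue, and both were lower in CNS. Hbegf, a second EGF receptor ligand, was at 4.15 and 5.85 FPKM in CNS and at 24.8 and 17.0 FPKM in dLN (log2 ratio -1.86). Erbb3, a receptor of the neuregulins, had a log2 ratio of -0.58, and that call was lost without either dLN library and with no filter on low values. Ereg, 46.0 kb from Areg, was listed at 0 in all 4 libraries, and Egfr was at most 0.106 FPKM.

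Spp1 (Entrez gene 20750, plus strand of chromosome 5, 104435111 to 104441053) encodes osteopontin, a secreted ligand of integrins and CD44 that activated T cells and myeloid cells make. It was the lowest of the 9 genes in dLN and low in CNS. It was at 2.64 and 6.89 FPKM in CNS, or about 76 and 205 fragments, and at 0.394 and 0.440 FPKM in dLN, or about 10 and 13 fragments. Both CNS libraries were above both dLN libraries, but the CNS libraries differed 2.61-fold, more than those of any other of the 9 genes. The log2 ratio was 1.92 with a standard error of 0.38 (limma adjusted p = 0.00765), the mean FPKM was 11.4 times higher in CNS, and with a pseudocount of 0.1 the log2 ratio was 3.08. Without CNS replicate 2, where the myeloid markers were highest, it was 1.36. In CNS replicate 1 the microglia and macrophage markers were also above both dLN libraries (C1qb at 3.565 FPKM against 0), except Cd74 and Cd68. Cd74 was at 22.4 FPKM against 58.39 and 54.08 FPKM, and Cd68 at 1.787 FPKM against 3.87 and 3.676 FPKM. The part of myeloid RNA in the reads of Spp1 was not tested. Of its 5 listed transcripts, that of 1420 bases held at least 91.2% of the FPKM in each library.

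The receptors of osteopontin moved in both directions, as did all genes tested (37.8% higher and 37.2% lower in CNS). Of 6 tested, Itga4 (log2 ratio 4.29), Itgb3 (3.16), Itgb1 (1.29) and Itgb5 (1.23) were higher and Itgav (-2.95) and Cd44 (-0.57) lower in CNS. Itga4, the integrin chain that mediates entry of T cells into the CNS, was at 39.9 and 27.8 FPKM in CNS and at 0.671 and 0.840 FPKM in dLN. Itgav, which pairs with Itgb3 and Itgb5, was at 7.84 and 8.63 FPKM in CNS and at 68.0 and 72.3 FPKM in dLN. CD44 was used to sort the cells of both tissues.

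Both chains of the IL-6 receptor were lower in CNS. Il6ra (Entrez gene 16194, minus strand of chromosome 3, 89869324 to 89913162) was at 1.26 and 2.36 FPKM in CNS and at 9.26 and 11.8 FPKM in dLN. Its mean was 5.83 times higher in dLN, and its log2 ratio was -2.06 with a standard error of 0.23 (limma adjusted p = 0.00108). Il6st (Entrez gene 16195, plus strand of chromosome 13, 112464070 to 112506860) was at 3.92 and 6.66 FPKM in CNS and at 44.5 and 57.1 FPKM in dLN. Its mean was 9.60 times higher in dLN, and its log2 ratio was -3.07 with a standard error of 0.25 (limma adjusted p = 0.000392). For both genes the tissues were far apart and CNS replicate 2 was the higher CNS library. Il6st was at 3.12 and 2.83 times Il6ra in CNS and at 4.80 and 4.83 times Il6ra in dLN. Of the sheddases that release IL-6 receptor and amphiregulin from the surface, Adam10 (log2 ratio -1.17) and Adam17 (-0.57) were lower in CNS, the latter not without CNS replicate 1 (limma adjusted p = 0.0536). Their cofactors Frmd8 (2.65) and Tspan14 (1.18) were higher, and Rhbdf2 (-0.19) and Tspan5 (-0.33) did not pass, although Tspan5 did without CNS replicate 2 and with the same sum per library.

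The promoters of the 4 genes called lower in CNS are shown, a direction shared by 37.2% of all genes tested. Each is the stretch of 250 bases before the start of the RefSeq gene (GRCm38.p6, the assembly of mm10), which for Areg (91139599) and Il6ra (89913196) is not the transcript start in the FPKM tables given above, read 5′ to 3′ on the strand of the gene. It lies on chr3:89913197-89913446 for Il6ra, chr13:112463820-112464069 for Il6st, chr11:4257318-4257567 for Lif and chr5:91139349-91139598 for Areg. Capitals mark matches on either strand to the E-box CACGTG bound by Bhlhe40 and other factors, the AP-1 motif TGANTCA, the STAT motif TTCNNNGAA and the NFAT core GGAAA. No matches to different motifs overlapped in the sequences shown.
Il6ra: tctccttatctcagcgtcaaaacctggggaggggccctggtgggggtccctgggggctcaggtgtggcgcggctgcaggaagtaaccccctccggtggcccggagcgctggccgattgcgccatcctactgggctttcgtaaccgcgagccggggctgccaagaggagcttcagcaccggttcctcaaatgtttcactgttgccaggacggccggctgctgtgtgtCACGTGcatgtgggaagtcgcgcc
Il6st: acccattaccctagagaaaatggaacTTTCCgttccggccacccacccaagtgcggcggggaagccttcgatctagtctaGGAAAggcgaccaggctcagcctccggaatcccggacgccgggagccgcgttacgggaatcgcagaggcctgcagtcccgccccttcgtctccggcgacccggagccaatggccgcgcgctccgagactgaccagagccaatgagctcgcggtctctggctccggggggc
Lif: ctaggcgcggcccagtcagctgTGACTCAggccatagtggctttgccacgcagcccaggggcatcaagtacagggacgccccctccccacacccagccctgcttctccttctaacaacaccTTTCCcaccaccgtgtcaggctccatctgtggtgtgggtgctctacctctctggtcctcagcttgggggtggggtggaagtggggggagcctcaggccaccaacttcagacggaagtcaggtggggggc
Areg: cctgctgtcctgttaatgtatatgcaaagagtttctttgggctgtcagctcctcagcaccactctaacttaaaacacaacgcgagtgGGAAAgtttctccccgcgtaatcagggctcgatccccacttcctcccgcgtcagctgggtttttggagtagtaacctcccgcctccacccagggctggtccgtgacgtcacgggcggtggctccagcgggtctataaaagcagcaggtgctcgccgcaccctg
The Il6ra promoter held the E-box, which 6.02% of 32851 promoters of this length hold. The Lif promoter held the AP-1 motif, which 6.75% hold. The NFAT core was in those of Il6st, Lif and Areg and in 55.6% of all promoters, and none of the 4 held the STAT motif, found in 7.02%. Promoters were listed for 7 of the 9 genes, not for Bhlhe40 and Osm, and in the other 3 (Csf2, Csf1 and Spp1) the NFAT core alone was found. For Csf2 the stretch searched lies before the RefSeq start at 54249899. GENCODE M21 places the start of this minus-strand gene at 54249667, and the bases just before that start were mostly not searched. A match is a description of the letters and not a measured binding site.

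Other IL-6 family cytokines were mostly low. Il31, whose product acts on skin and nerve cells through the OSM receptor, was listed at 0 in both CNS libraries and was at 23.9 and 31.6 FPKM in dLN (limma adjusted p = 8.12e-05). Clcf1, which signals through the CNTF receptor, had a log2 ratio of -0.78 (limma adjusted p = 0.040), and the call was lost in 6 of 14 alternative fits, among them those without CNS replicate 1 or without either dLN library. Ebi3 (log2 ratio 0.18) and Il6 (0.66) did not pass, and Il6 was at 1.91 FPKM in CNS replicate 2 and at most 0.351 FPKM elsewhere, and was called without CNS replicate 1. Il11, Cntf, Ctf1 and Il27 stayed under 1 FPKM. Among the other receptors Il27ra, which pairs with gp130 to bind IL-27, was higher in CNS, at 49.1 and 49.8 FPKM against 18.5 and 16.8 FPKM in dLN (log2 ratio 1.44, limma adjusted p = 0.000194). Lifr and Osmr, which bind LIF and OSM, were at most 0.476 FPKM in any library.

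Genes that carry or inhibit the signal of gp130 and the GM-CSF receptor split evenly, with 6 of 14 higher, 6 lower and 2 not called. All genes tested did so too (37.8% higher and 37.2% lower), so the split does not set this list apart. Jak2, the kinase of the GM-CSF receptor, was at 29.4 and 31.6 FPKM in CNS and at 191 and 214 FPKM in dLN (log2 ratio -2.69, limma adjusted p = 8.95e-05). Stat5a, a factor activated by GM-CSF and IL-2, was at 13.4 and 19.6 FPKM in CNS and at 121 and 124 FPKM in dLN (log2 ratio -2.84), whereas Stat5b fell by 0.49 on the log2 scale. Jak1 (log2 ratio 1.66) and Tyk2 (1.01) were higher in CNS. Stat3, the main factor downstream of gp130, was at 71.9 and 77.0 FPKM in CNS and at 62.4 and 64.5 FPKM in dLN and did not pass (log2 ratio 0.23, limma adjusted p = 0.0559), although it did in 3 of 14 alternative fits, that without CNS replicate 1 among them. Socs3, the inhibitor that Stat3 induces and that blocks gp130, was higher in CNS, at 44.3 and 77.6 FPKM against 10.6 and 10.1 FPKM (log2 ratio 2.39). Ptpn6 (1.72) and Pias3 (2.15), a phosphatase and an inhibitor of Stat3, were higher as well. Socs1 (-0.39), Ptpn11 (-0.33) and Pias1 (-0.36) were slightly lower, and each lost its call with the libraries scaled to the same upper quartile, without dLN replicate 2 and without at least 1 other library. Cish did not pass (0.11).

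**Figure D3:**
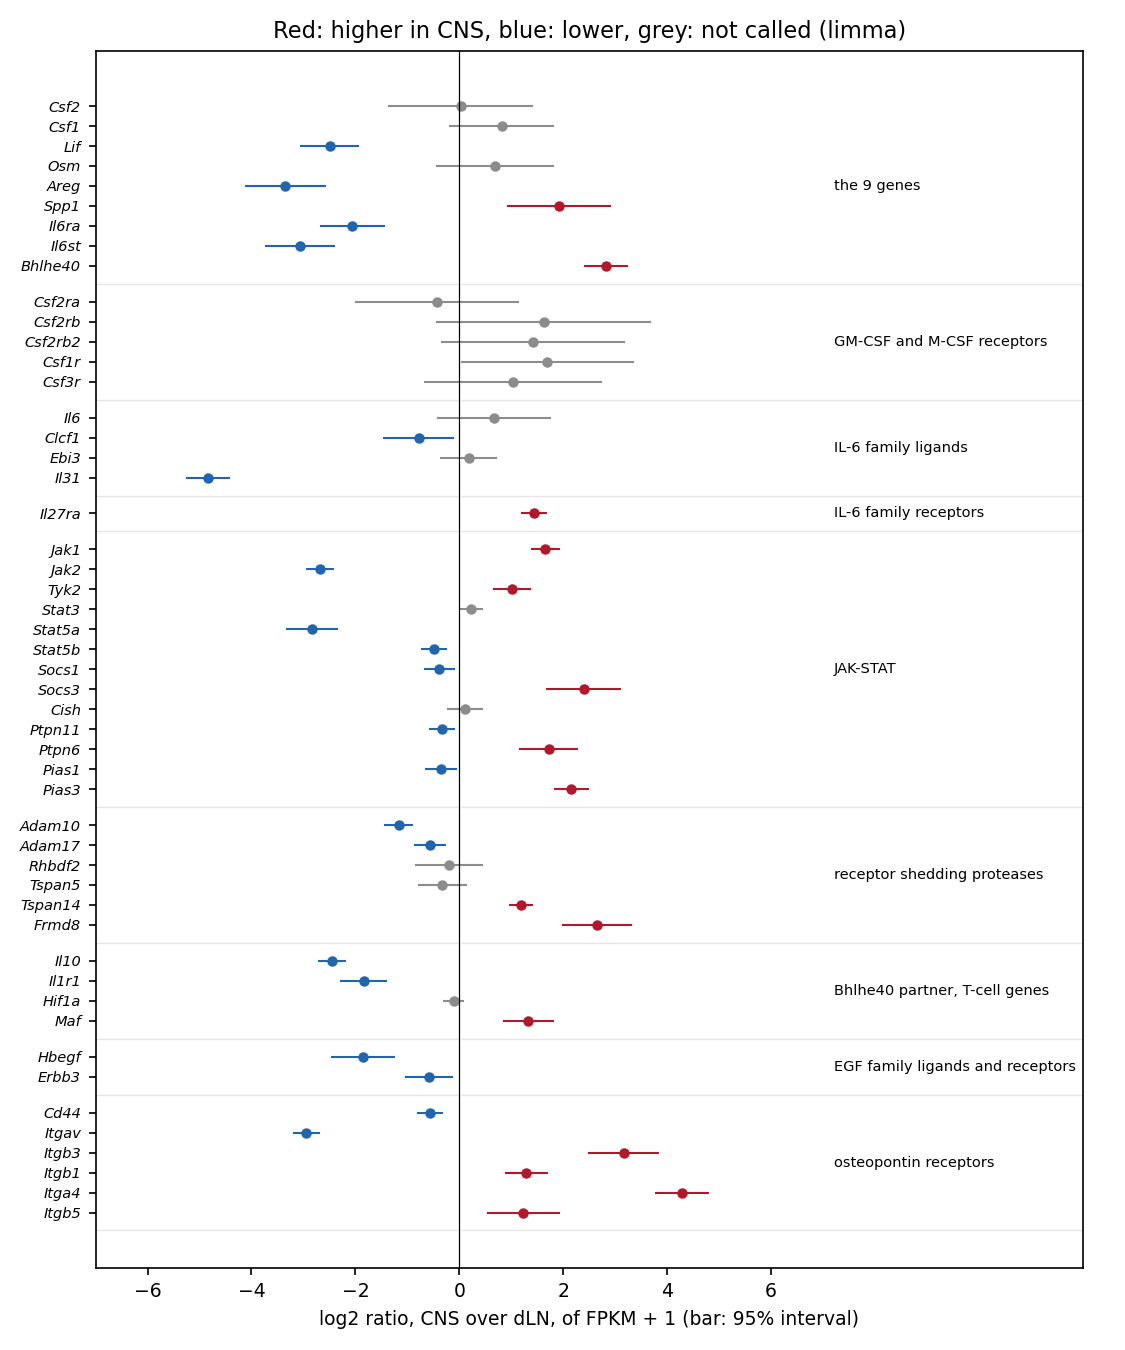
Log2 ratio of CNS over dLN on log2(FPKM + 1), with the 95% interval of limma, for the 9 genes and the tested genes of the pathway lists that are reported here, in red where higher in CNS, in blue where lower and in grey where not called. The intervals of Csf2, Csf1 and Osm span 0, and the JAK-STAT genes lie on both sides.

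Over all 8 pathway lists, 42 of 65 genes were tested, of which 14 were higher, 16 lower and 12 not called. Against these 30 calls of 42 stand the 74.9% of all genes tested. Of the 30, 24 were called in every alternative fit that tested them, and none changed its direction.

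Because FPKM is scaled by transcript length, the levels of the 9 genes can be ordered within a tissue. In CNS the order of mean FPKM was Bhlhe40, Csf2, Areg, Osm, Csf1, Lif, Il6st, Spp1 and Il6ra. The ranges of the 2 CNS libraries overlapped between Areg and Osm, Osm and Csf1, Csf1 and Lif, and Il6st and Spp1. In dLN the order was Areg, Csf2, Lif, Bhlhe40, Il6st, Il6ra, Osm, Csf1 and Spp1. There the ranges overlapped from Csf2 through Lif and Bhlhe40 to Il6st, each with the next, and from Il6ra through Osm to Csf1. Csf2 was at rank 2 in both tissues, while Areg was at rank 1 in dLN and 3 in CNS, and Bhlhe40 at rank 4 in dLN and 1 in CNS.

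The libraries of a tissue differed in these genes. All 9 were higher in CNS replicate 2 than in CNS replicate 1, as were 54.3% of all genes tested, by 0.29 (Bhlhe40) to 1.15 (Osm) on the log2 scale. The median difference was 0.87 over the 9 genes and 0.02 over all genes tested. Of the 28 stimulation-induced genes, 27 were also higher in CNS replicate 2, and so were 14 of the 15 microglia and macrophage markers. In dLN, 5 of the 9 were higher in replicate 2, and Csf2 (-1.36), Osm (-0.61), Csf1 (-0.59) and Bhlhe40 (-0.32) were lower in replicate 2. These 4 genes, which include all that did not pass between the tissues, thus differed in opposite directions between the replicates of CNS and of dLN. The part of myeloid cells or of stimulation in this was not tested.

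**Figure D4:**
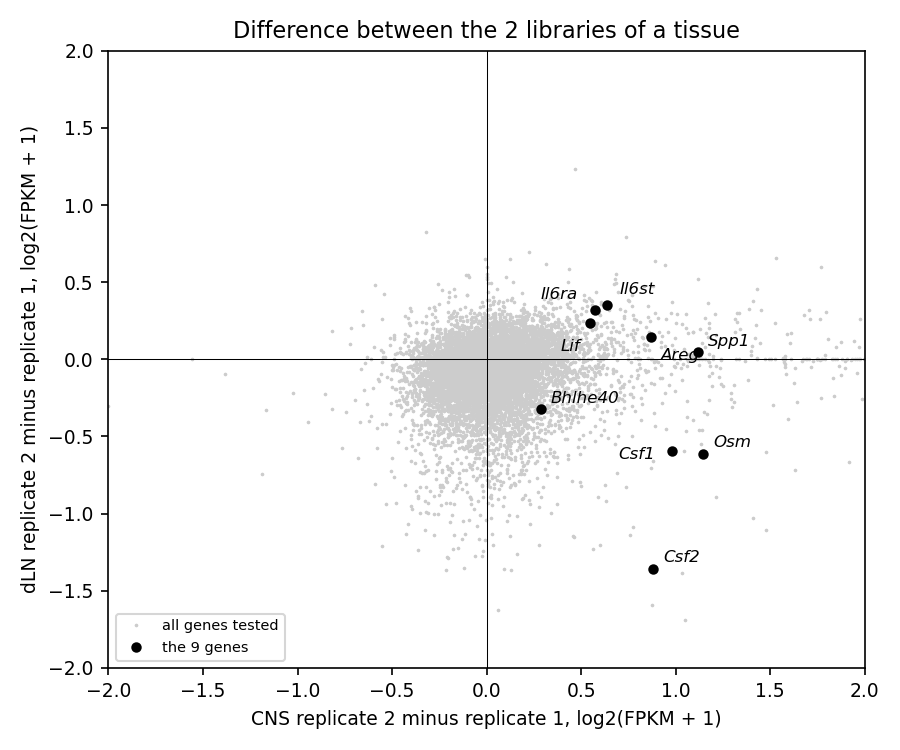
Difference between replicate 2 and replicate 1 on log2(FPKM + 1) in CNS (x axis) and in dLN (y axis) for the 9 genes (black) and all genes tested (grey), of which 113 lie outside the axes. All 9 genes lie to the right of 0, and Csf2, Csf1 and Osm lie farthest below 0.

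The genes most like Csf2 and Bhlhe40 were sought among the 5635 genes whose mean over the libraries reached 10 FPKM, by the Euclidean distance of log2(FPKM + 1) over the 4 libraries after centring each gene. With 4 libraries such likeness is a description. Nearest to Bhlhe40 were Jakmip1, Grina, Ppt2, Psmb10 and Pld3, at distances of 0.09 to 0.12, with log2 ratios of 2.79 to 2.90. Jakmip1 was at 27.6 and 32.0 FPKM in CNS and at 4.10 and 2.86 FPKM in dLN. Nearest to Csf2 were Adam8, Incenp, Snora81, Dbi and Slc15a3, at larger distances of 0.63 to 0.71, and none of the 5 passed the test between the tissues. Adam8 was at 35.5 and 38.6 FPKM in CNS and at 59.9 and 29.3 FPKM in dLN.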

How the data were processed

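The measured libraries were 2 from CNS and 2 from dLN. The authors trimmed and mapped the reads to mouse mm10 and deposited FPKM per RefSeq transcript, in 1 table of 33819 transcripts per tissue; the aligner and the program that computed FPKM are not given in the sources used here. In the CNS table both library names share 1 header cell, and the columns were taken in their order. From the deposited FPKM, transcripts were summed by symbol, leaving out 565 without a symbol (0.142% to 0.446% of the FPKM of a library). Starts are given counted from 1, and strands come from GENCODE M21. The depth of a library was taken from the spacing of low FPKM among transcripts of 4000 bases or more, where 84.7% to 92.9% of low values lay within 0.1 of a whole fragment. Counting error aside, 2 libraries per tissue limit the precision.

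Genes were compared with limma 3.58.1 (R 4.3.3, eBayes with its trend option) on log2(FPKM + 1) where the mean of CNS or of dLN reached 1 FPKM, with Benjamini-Hochberg adjustment over all of them. Python 3.11.15 was used for the rest, and motifs were searched in RefSeq promoters. A few genes of the lists enter the counts but are not reported here by name. The 9 genes and the lists were chosen with earlier results of these data known. Genes named are the 9 genes, members of the pathway lists, the 5 nearest genes to Csf2 and to Bhlhe40, and defining or highest members of marker lists. Il2, Fos and Junb of the stimulation list are named for their values. Il3, of the stimulation list, was singled out for its position, and Ddx3y and Xist, of no list, as sex-linked genes, all after their values were seen. Alternatives covered the pseudocount, 3 scalings, the highest transcript, filters on low values, the trend option, a minimum fold, the replicate number as a term and each library left out.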

Additional observations from a re-analysis of the deposited data

How the results depend on the processing

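Of 125 values of the 9 genes under the alternative fits, 122 stayed on the same side of the threshold with the same sign. The exceptions were all of Csf2, whose log2 ratio of 0.03 was -0.17 with the same sum per library, -0.42 without CNS replicate 2 and -0.65 without dLN replicate 2. It was called in none of these fits. With each library left out it ranged from -0.65 to 0.70; the library left alone in its tissue is then assumed to vary like those of the other. The same sum per library moved the median log2 ratio of all genes tested from 0.05 to -0.13 and the same upper quartile to 0.16, and calls higher in CNS went from 50.4% of all calls to 43.1% and 55.6%.

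The count of 7968 genes called was 4168 where a change of at least 1 on the log2 scale was also asked, since fewer genes pass a second criterion, and 6596 to 7363 with each library left out. The 6 calls among the 9 genes stood in every fit except with a minimum of 5 FPKM, where Spp1 was not tested. Pathway calls numbered 30, and 25 to 34 with each library left out. Both tissues have a library 1 and a library 2 in the labels, but across genes their replicate differences correlated at only 0.0933, and no source describes a pairing. By Ddx3y and Xist the tissues also differed in sex, so no mouse gave cells to both. A fit with this number as a replicate block called 7828 genes, 6 of the 9 genes and 29 pathway genes were called.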
